A study of Homo sapiens with 14 samples.

Results

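The AP-1 subunit genes FOS, FOSB, FOSL2, JUN, JUNB and JUND, the zinc-finger genes EGR1 and EGR2, and the immediate early response genes IER2 and IER3 were followed in Kasumi-1, an established human cell line from acute myeloid leukaemia with the fusion gene AML1-ETO (RUNX1-RUNX1T1). Every probe set whose only gene symbol in the platform annotation was one of these 10 names was taken. The choice gave 17 of the 22283 probe sets and 9 of the 11963 genes with a symbol of their own: FOSL2 and JUND had 3 probe sets each, JUN had 4, EGR1 had 2 and the other 5 genes had 1. EGR2 was not analysed here.

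Each of 14 samples was read on 1 single-colour oligonucleotide array at 96 h, counted from transfection where there was one. All samples were Kasumi-1 cells grown in serum-containing RPMI medium with antibiotics. An siRNA aimed at the AML1-ETO fusion was given with a lipid reagent (siLentFect, 240 nM siRNA, 3 arrays) or by nucleofection, an electrical transfection (Amaxa, 1.5 µM siRNA, 3 arrays). The controls were an siRNA against firefly luciferase given by lipid at 240 nM (3 arrays) or by nucleofection at 1.5 µM (2 arrays), cells nucleofected without siRNA (1 array) and untransfected cells (2 arrays). The luciferase nucleofection sample numbered 3 and the untransfected sample numbered 2 were not analysed here. Since the methods used different siRNA concentrations, dose and method cannot be told apart. Whether the replicates of a group were separate cultures is not in the labels, and every p-value reflects the spread of these arrays alone, which may be technical. In bulk RNA, fewer cells of a type and less RNA per cell cannot be told apart.

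The values are MAS5 signals, an intensity per probe set in arbitrary units, which had been scaled so that each array had a mean of 138.5. Signals of different probe sets cannot be set against each other, so levels are compared only across arrays for 1 probe set at a time. For the tests, signals below 20 were raised to this floor and log2 was taken. Each gene was represented by its brightest probe set, and the brightest 60% of genes, 7178 in number, were compared by limma. A gene was called where the Benjamini-Hochberg adjusted p over these 7178 genes was below 0.05. Differences are in log2 units of floored signal, which understates those of dim genes. The arrays had 38.3% to 44.2% of all probe sets below the floor, and replicate arrays correlated at 0.955 to 0.974 over genes. RUNX1T1, the part of the fusion gene that the arrays could follow, had a geometric mean signal of 556 with luciferase and 440 with AML1-ETO siRNA in lipid-treated cells. The same probe set had 701 (luciferase) and 297 with nucleofection. It fell by 1.24 with nucleofection (limma, adjusted p = 0.00288), whereas the difference by lipid was -0.34 (adjusted p = 0.999). Of the myeloid blast markers, KIT read 1617 to 2297, MPO 4784 to 7572 and CD34 29.1 to 79.5, while CD3G, ALAS2, KRT19, CDH1 and LUM, which mark other cell types, lay below the floor on all 14 arrays. Other markers of such cells were above the floor on all 14 arrays: CD3E (30.9 to 84.7), HBB (39.5 to 70.4), EPCAM (71.3 to 267), COL1A1 (33.1 to 111) and DCN (32.6 to 67.3).

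AP-1 is a family of dimers between a Jun protein and a Fos, Jun or related bZIP protein, which bind a short DNA element and regulate genes of growth, differentiation and stress. FOS, FOSB, JUN, JUNB, EGR1 and the IER genes are immediate early genes: growth factor and stress kinases switch them on within minutes without new protein synthesis, for several of them through serum response factor at CArG boxes, and their mRNAs are short-lived. JUND is transcribed more steadily than the other AP-1 genes, and in myeloid cells JUN, JUNB and EGR1 are linked to monocytic differentiation.

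The 250 bases before the start site are shown for EGR1, JUN and IER2, whose arrays separated the siRNAs in nucleofected cells, and for JUND, which separated the methods. The sequences are from RefSeq (GRCh38.p14), 5′ to 3′ on the strand of the gene. EGR1 is at chr5:138465229-138465478 on the plus strand and JUN at chr1:58784048-58784297 on the minus strand. JUND is at chr19:18281623-18281872 on the minus strand and IER2 at chr19:13150161-13150410 on the plus strand. Capitals mark matches to the searched motifs.
EGR1: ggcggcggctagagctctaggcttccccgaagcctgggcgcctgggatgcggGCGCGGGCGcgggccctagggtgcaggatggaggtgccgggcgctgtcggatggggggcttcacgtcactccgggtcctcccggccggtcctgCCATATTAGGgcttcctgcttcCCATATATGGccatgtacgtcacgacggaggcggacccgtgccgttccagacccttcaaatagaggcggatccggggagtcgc
JUN: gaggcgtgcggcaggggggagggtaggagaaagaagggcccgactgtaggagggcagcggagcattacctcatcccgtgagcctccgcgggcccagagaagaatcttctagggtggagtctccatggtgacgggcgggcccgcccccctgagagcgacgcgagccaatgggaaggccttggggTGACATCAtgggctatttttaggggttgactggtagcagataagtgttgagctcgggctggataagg
JUND: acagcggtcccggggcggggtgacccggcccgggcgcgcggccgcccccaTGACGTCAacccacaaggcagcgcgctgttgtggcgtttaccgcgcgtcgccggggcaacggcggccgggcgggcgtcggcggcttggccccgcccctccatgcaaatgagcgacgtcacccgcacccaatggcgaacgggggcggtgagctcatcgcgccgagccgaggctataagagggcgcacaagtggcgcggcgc
IER2: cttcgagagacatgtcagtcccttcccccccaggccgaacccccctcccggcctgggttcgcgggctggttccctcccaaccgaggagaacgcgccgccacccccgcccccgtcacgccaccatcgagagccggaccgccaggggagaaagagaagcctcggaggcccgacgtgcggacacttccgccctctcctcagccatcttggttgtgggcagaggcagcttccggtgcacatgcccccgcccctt
Both strands were searched for the CArG box, the cyclic AMP response-type AP-1 element TGACNTCA, the classical AP-1 element TGANTCA, the EGR element GCGNGGGCG and TATAAA. Each printed window ends directly before the annotated gene, and 9 of the 10 genes, all but IER3, had a promoter entry to search. EGR1 held 2 CArG boxes, at positions -105 to -96 and -83 to -74 from the start site, and a GCGNGGGCG match at -198 to -190. A CArG box occurred in 1.16% of the 35116 promoter windows of this length and GCGNGGGCG in 8.41%. JUN held TGACATCA at -67 to -60 and JUND held TGACGTCA at -200 to -193, a motif found in 6.87% of windows. IER2 and FOSL2 held no match to any of the 5 motifs. FOS, FOSB and JUNB held TATAAA, found in 10.72% of windows, at -33 to -28, -30 to -25 and -31 to -26. None of the windows of these genes held TGANTCA, which occurred in 6.57% of all windows. The matches describe letters in these windows and not binding.

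FOS, the partner of JUN in the classical AP-1 dimer, lay below the floor on all 14 arrays, with signals of 1.66 to 3.57. FOSB, a close relative of FOS, read 1.87 to 7.14 and lay below the floor on all 14 arrays as well. No group of arrays could therefore be ordered for either gene. Neither passed the filter on dim genes, and the other 7 genes were tested. The plot of signals by gene shows these levels with every array as a point.

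**Figure D1:**
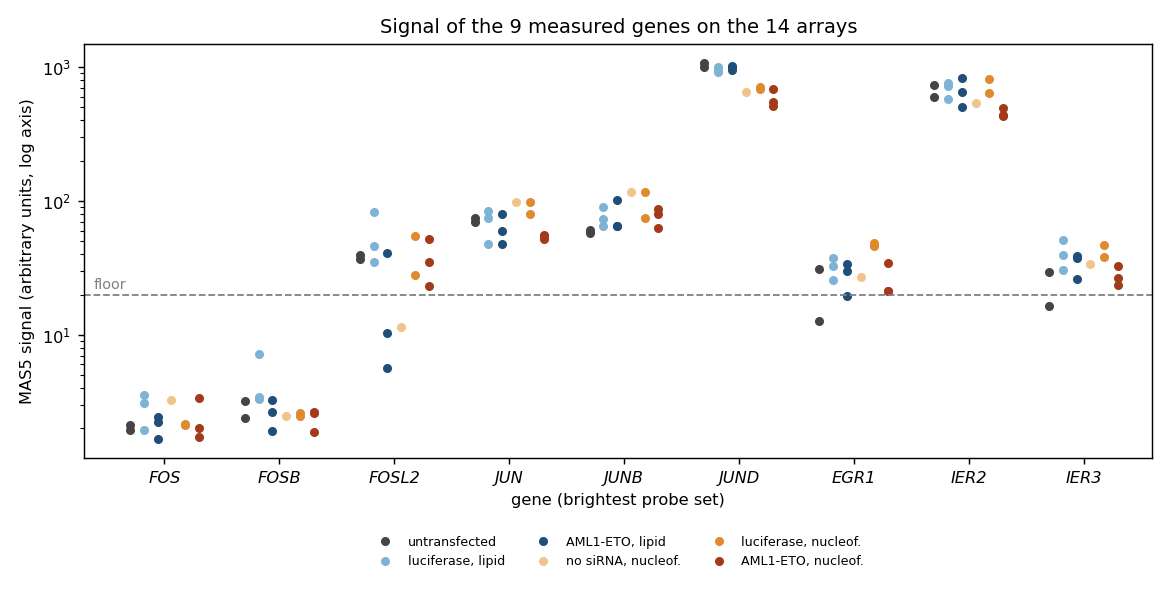
MAS5 signal (arbitrary units, log axis) of the brightest probe set of each of the 9 measured genes, with 1 point per array coloured by group and the floor of 20 dashed. FOS and FOSB lie below the floor on all 14 arrays, and the JUND points of the nucleofected arrays lie below those of all others.

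FOSL2, which encodes the Fos-family protein FRA2, had an unsteady signal. Its brightest probe set read 45.9, 35.0 and 82.2 with luciferase siRNA by lipid and 5.67, 41.1 and 10.3 with AML1-ETO siRNA by lipid. By nucleofection it read 28.1 and 55.1 with luciferase and 52.2, 34.8 and 23.3 with AML1-ETO siRNA. Untransfected cells gave 36.8 and 39.3, and the array without siRNA 11.5. The groups overlapped in both methods, and the lipid arrays with AML1-ETO siRNA alone ran from 5.67 to 41.1. A further FOSL2 probe set, 218880_at, was steadier, at 30.6, 31.8 and 31.6 with luciferase and 21.2, 18.2 and 25.7 with AML1-ETO siRNA by lipid. By nucleofection it read 25.3 and 26.4 against 4.11, 19.9 and 14.8. Within each method, every AML1-ETO siRNA array of this probe set was below every luciferase array, as was true of 1.40% of the 13329 probe sets tested. The floored difference was -0.43 ± 0.12 (SE) as the mean of both methods, a bound because all 3 nucleofected AML1-ETO siRNA arrays were below the floor. It had an adjusted p of 0.110 in the limma fit over all 13329 probe sets tested and did not pass, where 1.24% of probe sets did. Both probe sets correlated at 0.121 over the 14 arrays.

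JUN, the defining Jun subunit, had a signal of 74.1 and 69.6 in untransfected cells. With luciferase siRNA it read 48.03, 83.5 and 74.6 by lipid and 98.4 and 79.3 by nucleofection, and the array nucleofected without siRNA gave 98.3. With AML1-ETO siRNA it read 47.996, 59.8 and 80.5 by lipid and 54.6, 51.6 and 55.9 by nucleofection. Lipid groups overlapped, whereas all 3 nucleofected arrays with AML1-ETO siRNA lay below all 3 nucleofected arrays without it. Against the nucleofected luciferase arrays alone, 25.4% of the tested genes were lower without overlap. The groups ran from nucleofected luciferase (88.8 ± 13.5, SD, n = 2) through untransfected cells (71.8 ± 3.17, n = 2), lipid luciferase (68.7 ± 18.5, n = 3) and lipid AML1-ETO siRNA (62.8 ± 16.4, n = 3) to nucleofected AML1-ETO siRNA (54.1 ± 2.18, n = 3). The neighbouring groups from untransfected cells to nucleofected AML1-ETO siRNA differed by less than the larger of their SDs.

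JUNB, a Jun protein that often restrains JUN, read 57.2 and 60.8 in untransfected cells. It read 73.7, 65.3 and 90.8 with luciferase and 65.2, 65.4 and 101 with AML1-ETO siRNA by lipid. By nucleofection it read 117 and 74.1 with luciferase, 86.8, 79.7 and 63.1 with AML1-ETO siRNA and 118 without siRNA. The untransfected arrays were the lowest of all 14, an order not counted over all genes, and the 2 siRNAs overlapped in both methods.

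JUND separated the nucleofected arrays from the rest. Its signal was 1004 and 1079 in untransfected cells, 1007, 925 and 946 with luciferase and 1001, 959 and 1017 with AML1-ETO siRNA by lipid. By nucleofection it was 707 and 686 with luciferase, 511, 691 and 545 with AML1-ETO siRNA and 652 without siRNA. All 6 nucleofected arrays lay below the 8 others with no overlap, and so did 8.99% of the tested genes, while 9.99% did not overlap in either direction. In order of the group means, untransfected cells (1042 ± 52.5, SD, n = 2), lipid AML1-ETO siRNA (993 ± 29.9, n = 3) and lipid luciferase (959 ± 42.8, n = 3) differed by less than the larger SD of each neighbouring pair. Nucleofected luciferase (697 ± 14.97, n = 2) came next, then the single array without siRNA, then nucleofected AML1-ETO siRNA (582 ± 95.4, n = 3).

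**Figure D2:**
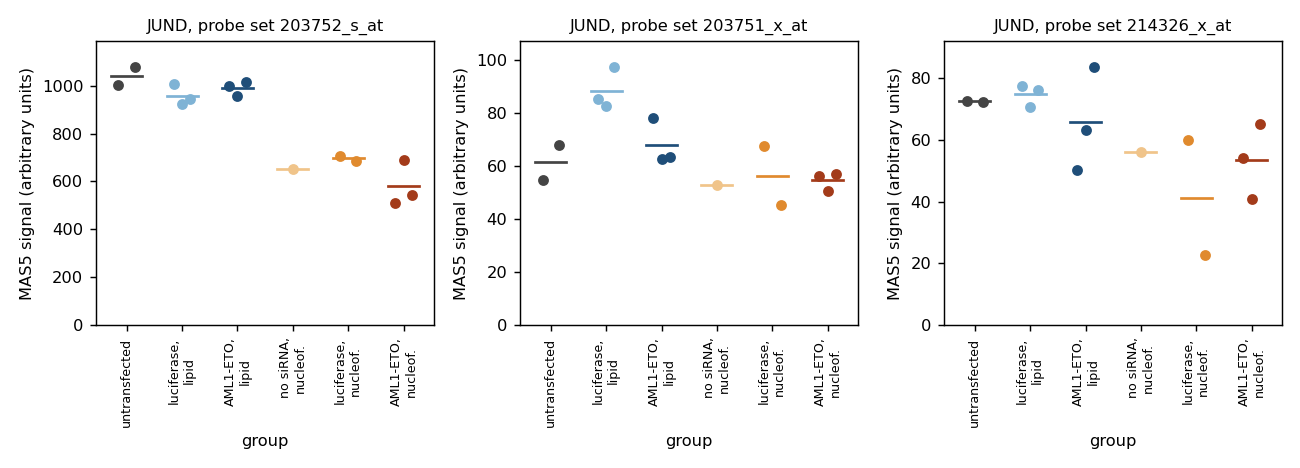
MAS5 signal (arbitrary units, axis from 0) of the 3 JUND probe sets by group, with 1 point per array and a bar at the group mean. In 203752_s_at the nucleofected arrays sit at 511 to 707 and all others at 925 to 1079, whereas the arrays of the other probe sets overlap.

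EGR1, the immediate early zinc-finger factor induced by ERK signalling, was near the floor. It read 12.6 and 30.9 in untransfected cells, 25.8, 37.2 and 32.4 with luciferase and 19.6, 33.6 and 30.04 with AML1-ETO siRNA by lipid. By nucleofection it read 48.1 and 46.1 with luciferase, 21.4, 34.1 and 21.4 with AML1-ETO siRNA and 27.3 without siRNA. The 2 nucleofected luciferase arrays were the highest of all 14, an order not counted over all genes. The array nucleofected without siRNA lay within the range of the AML1-ETO siRNA arrays. The groups ran from nucleofected luciferase (47.1 ± 1.42, SD, n = 2) to lipid luciferase (31.8 ± 5.73, n = 3), lipid AML1-ETO siRNA (27.8 ± 7.27, n = 3), nucleofected AML1-ETO siRNA (25.6 ± 7.34, n = 3) and untransfected cells (21.8 ± 12.9, n = 2). Only the first step of this order was larger than the SDs of the groups beside it.

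IER2, a nuclear protein of the immediate early response, read 732 and 599 in untransfected cells. It read 577, 761 and 725 with luciferase and 503, 647 and 829 with AML1-ETO siRNA by lipid. By nucleofection it read 821 and 643 with luciferase, 496, 442 and 431 with AML1-ETO siRNA and 538 without siRNA. The 3 nucleofected AML1-ETO siRNA arrays were the lowest of all 14, and the other 4 groups with replicates overlapped. This order was not counted over all genes, of which 25.4% lay below nucleofected luciferase without overlap. The mean of the lowest group was 457 ± 34.5 (SD, n = 3), and those of the other 4 ran from 660 ± 163 (lipid AML1-ETO siRNA, n = 3) to 732 ± 126 (nucleofected luciferase, n = 2).

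IER3, which encodes a stress-induced regulator of cell survival, read 16.3 and 29.7 in untransfected cells. It read 50.9, 39.2 and 30.3 with luciferase and 37.3, 38.9 and 26.0 with AML1-ETO siRNA by lipid. By nucleofection it read 37.8 and 46.9 with luciferase, 23.7, 26.7 and 32.5 with AML1-ETO siRNA and 33.5 without siRNA. Untransfected cells lay below both luciferase groups, and the lipid groups overlapped. The group means ran from 42.4 ± 6.41 (SD, n = 2) with nucleofected luciferase to 23.0 ± 9.46 (n = 2) in untransfected cells, and no neighbours in that order differed by more than their larger SD.

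The first comparison was AML1-ETO siRNA against luciferase siRNA, the effect of the knockdown. With nucleofection, EGR1, JUN, IER2 and IER3 each had a lower signal on every AML1-ETO siRNA array than on any luciferase array, but none of the 7 tested genes was called. Of all 7178 genes, 2.62% were called in this comparison, and 37.4% did not overlap, 25.4% in the lower direction. The EGR1 difference of -0.91 ± 0.28 (SE) had a limma adjusted p of 0.109. The IER2 difference of -0.67 ± 0.22 had an adjusted p of 0.127, and the JUN difference of -0.71 ± 0.25 one of 0.152. IER3 differed by -0.62, with an adjusted p of 0.227. JUNB, JUND and FOSL2 differed by -0.29, -0.27 and -0.18. The unadjusted p was below 0.05 for 4 of the 7 genes, against 18.9% of all genes. The median difference of the 7 was -0.62, and that of all genes was -0.11. The log2 ratio of the GAPDH 3′ to 5′ control probe sets, a sign of RNA integrity, was -0.18 to -0.11 on the nucleofected AML1-ETO siRNA arrays and 0.03 and 0.25 on the luciferase arrays, which did not overlap. The same ratio for actin was 0.29 to 0.46 and 0.38 to 0.84, which overlapped. Summed signals of several marker lists did not overlap. Fibroblast markers (5 of 5 on the array) were at 126.5 to 146 with AML1-ETO and 181 to 201 with luciferase siRNA, and T cell markers (4 of 4) at 83.5 to 115 and 128.5 to 153. Erythroid markers (2 of 4) were at 52.7 to 59.4 and 61.7 to 61.9, and epithelial markers (5 of 5) were at 151 to 199 and 128 to 130. The summed myeloid blast markers (7 of 8), which include RUNX1T1, were at 10410 to 10630 with AML1-ETO and 8780 to 9768 with luciferase siRNA. Each sum adds raw signals, so bright members weigh most. MPO had a geometric mean of 7308 with AML1-ETO and 5918 with luciferase siRNA, and LYZ and PTPRC were higher too. KIT (1915 and 2023), CD34, SPN and RUNX1T1 were lower. Of the fibroblast markers, COL1A1 was at 54.1 and 103, DCN at 42.7 and 43.1 and COL1A2 at 28.6 and 25.3. Of the defining markers, LUM, CD3G, ALAS2, KRT19 and CDH1 were below the floor. The part of RNA integrity or of other cell types in these differences was not tested.

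**Figure D3:**
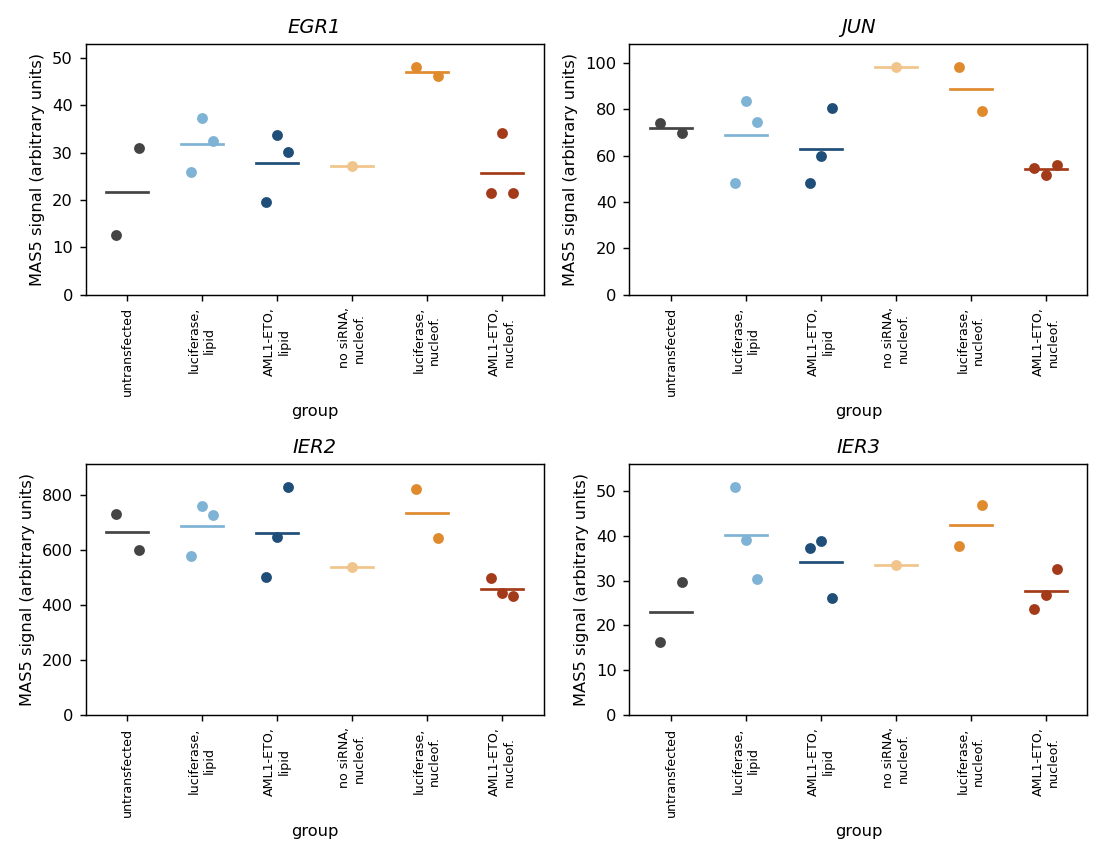
MAS5 signal (arbitrary units, axis from 0) of EGR1, JUN, IER2 and IER3 by group, with 1 point per array and a bar at the group mean. Within nucleofection every AML1-ETO siRNA array lies below both luciferase arrays, whereas the lipid groups overlap.

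Further probe sets of these genes were compared in the fit over all probe sets. JUN 213281_at differed by -0.34 ± 0.36 in nucleofected cells and EGR1 201694_s_at by -0.33 ± 0.30, and neither was called, against 2.10% of probe sets. FOSL2 218880_at differed by -0.37 ± 0.17 and was not called, whereas the brightest FOSL2 probe set differed by -0.18. These probe sets followed the brightest ones poorly, with correlations of -0.0748 for JUN and 0.0992 for EGR1 over the 14 arrays. For JUND, 203751_x_at differed by -0.02 and 214326_x_at by 0.51, in opposite directions. The remaining probe sets, JUN 201465_s_at and 201466_s_at and FOSL2 205409_at, were below the floor on 13, 14 and 11 arrays and did not pass the filter.

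With lipid, none of the 7 genes was called, and 0.125% of all genes were. FOSL2 differed by -1.001, with an unadjusted p of 0.0243 and an adjusted p of 0.956, and the other 6 genes differed by -0.23 to 0.05. The 95% confidence interval of EGR1 ran from -0.75 to 0.33 and that of JUN from -0.61 to 0.36. For IER2 the interval ran from -0.50 to 0.34 and for JUND from -0.25 to 0.35. The nucleofection differences of these genes lay outside their lipid intervals but have errors of their own. The direct test between methods, given below, called none of the 7 genes. The nucleofection differences of IER3, JUNB and FOSL2 lay inside their lipid intervals, which for IER3 ran from -0.73 to 0.28. The median of the 7 differences was -0.12, against -0.03 over all genes. An unadjusted p below 0.05 was found for 1 of the 7 genes and for 4.53% of all. Among further probe sets, JUND 203751_x_at differed by -0.38 by lipid (95% confidence interval -0.77 to 0.004) and 214326_x_at by -0.22. FOSL2 218880_at differed by -0.50, JUN 213281_at by -0.08 and EGR1 201694_s_at by 0.07, all without a call.

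As the mean of both methods, all 7 differences were below 0, as were 64.85% of all genes, and none was called. The share called over all genes was 1.66%. The median of the 7 was -0.42, against -0.07. EGR1 differed by -0.56 ± 0.19 (adjusted p = 0.189) and FOSL2 by -0.59 (0.382). IER3 and JUN each differed by -0.42, IER2 by -0.38, JUNB by -0.15 and JUND by -0.11. Unadjusted p-values were below 0.05 for 4 of the 7 genes and for 14.4% of all genes. The signs held under both other scalings tried. With a floor of 64, above every signal of EGR1 and IER3, the differences of these genes were 0. The difference between the methods in the knockdown effect was itself tested: 0 of the 7 genes and 0.0557% of all genes were called, with 0.507 as the lowest adjusted p among the 7, and no unadjusted p below 0.05, against 10.8% of all genes. The plot of knockdown differences sets the methods side by side.

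**Figure D4:**
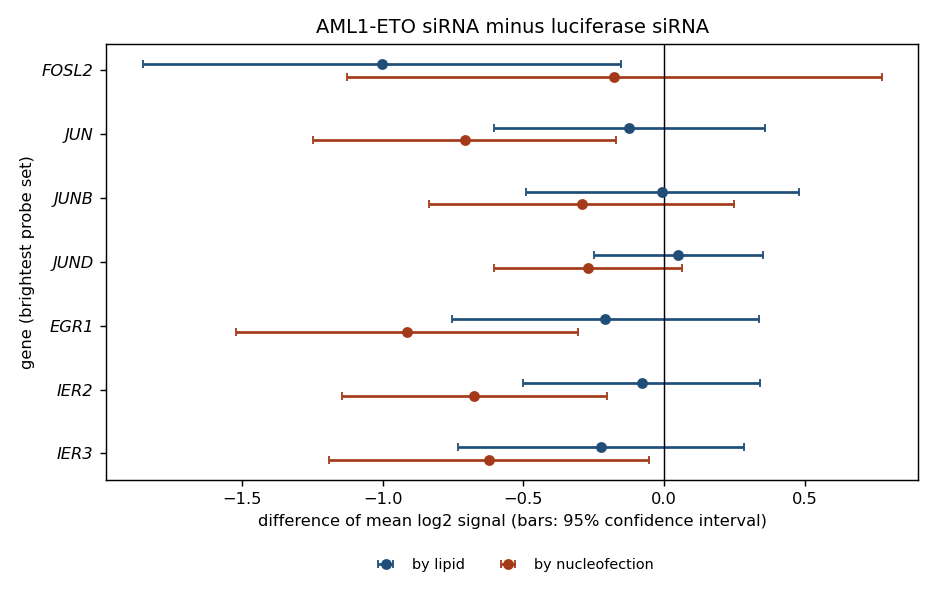
Difference of mean log2 signal, AML1-ETO siRNA minus luciferase siRNA, for the 7 tested genes by lipid and by nucleofection, with 95% confidence intervals from limma. By nucleofection the intervals of EGR1, JUN, IER2 and IER3 lie below 0, although no gene was called after adjustment over all genes.

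The second comparison set the lipid groups against the nucleofected groups, averaged over the siRNAs, in which method and dose vary together. JUND was higher with lipid by 0.62 ± 0.10 and was the 1 gene of the 7 that was called (limma, adjusted p = 0.00151). Of all genes, 25.6% were called, 22.0% in this direction, and the median of all genes was 0.17. The arrays of both siRNAs did not overlap between methods for JUND or for 13.3% of all genes. The JUND difference was 0.38 after quantile normalization, which brought the median of all genes to 0.01, and it was called there too. Among the other probe sets of the gene, 203751_x_at was higher by 0.49 and called (adjusted p = 0.0196, where 22.6% of probe sets were called). The third set, 214326_x_at, was higher by 0.66 and not called (adjusted p = 0.0527). The remaining genes differed by -0.23 to 0.21. Summed signals of the 5 epithelial markers, all on the array and of which EPCAM read 71.3 to 267, were 128 to 199 on the nucleofected and 243 to 322 on the other arrays, while KRT19 and CDH1 were below the floor throughout. The log2 GAPDH ratio was -0.18 to 0.25 on the nucleofected and -0.38 to -0.17 on the other arrays. The log2 actin ratio was 0.29 to 0.84 on the nucleofected and 0.30 to 0.66 on the other arrays. The part of the epithelial signals or of RNA integrity in the JUND difference was not tested.

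The third comparison set each transfected group against untransfected cells, which 4 comparisons share. With AML1-ETO siRNA by nucleofection, JUND fell by 0.85 ± 0.15 and was the 1 gene of the 7 called (limma, adjusted p = 0.00676). Of all genes, 8.15% were called, 6.42% lower, and the median was -0.17. JUN, JUNB, JUND and IER2 did not overlap with untransfected cells, as was true of 44.3% of all genes. IER2 differed by -0.54 (adjusted p = 0.142) and JUN by -0.41, while EGR1 differed by 0.01. The JUND call rests on both untransfected arrays: without replicate 1 the difference was -0.90 (adjusted p = 0.0558) and without replicate 3 it was -0.80 (adjusted p = 0.0633). After quantile normalization, which brought the median of all genes to -0.02, it was -0.56 (adjusted p = 0.0452). It was not called when only the arrays of these 2 groups were fitted (adjusted p = 0.0643), and the other JUND probe sets differed by -0.16 and -0.47 without a call, where 6.26% of probe sets had one. Between these 2 groups the epithelial and fibroblast marker sums did not overlap and were higher in untransfected cells, the latter at 171 to 183 there. B cell markers (3 of 4 on the array) were at 36.1 to 43.4 there and 64.5 to 105 with AML1-ETO siRNA. Myeloid blast markers were at 9649 to 10300 and 10410 to 10630, and the other marker sums overlapped. Within the myeloid list, the geometric means of MPO, LYZ, PTPRC and SPN were higher with AML1-ETO siRNA, and those of KIT, CD34 and RUNX1T1 were lower. The log2 GAPDH ratio, at -0.21 and -0.19 in untransfected cells, did not overlap. The log2 actin ratio did not overlap in the opposite direction, at 0.50 and 0.66 there and 0.29 to 0.46 with AML1-ETO siRNA. The part of these sums and ratios in the JUND difference was not tested.

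With luciferase siRNA by nucleofection, JUND differed by -0.58 (adjusted p = 0.0687) and was not called, nor were the other 6 genes, against 5.14% of all genes. EGR1 differed by 0.92 (adjusted p = 0.0976), IER3 by 0.79, JUNB by 0.66 and JUN by 0.30. In the fit over all probe sets, JUND 203751_x_at differed by -0.14 and 214326_x_at by -0.98, without a call. EGR1 201694_s_at differed by 0.50 and JUN 213281_at by 0.60, also without a call. With arrays centred on their medians, which brought the median of all genes from -0.06 to -0.25, JUND was called at -0.77 (adjusted p = 0.0145). EGR1, IER3, JUNB, JUN and JUND did not overlap with untransfected cells, which was true of 54.3% of all genes. With luciferase siRNA by lipid, 0 of the 7 genes and 0 of all genes were called by limma, with 1 of the 7 and 267 genes, 3.72% of all, at an unadjusted p below 0.05. JUNB and IER3 did not overlap with untransfected cells, which was true of 20.0% of all genes, and IER3 differed by 0.69. JUND 203751_x_at differed by 0.53 without a call, whereas the brightest JUND probe set differed by -0.12. With AML1-ETO siRNA by lipid, 0 of the 7 and 0.111% of all genes were called, and the differences ran from -0.58 for FOSL2 to 0.46 for IER3.

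**Figure D5:**
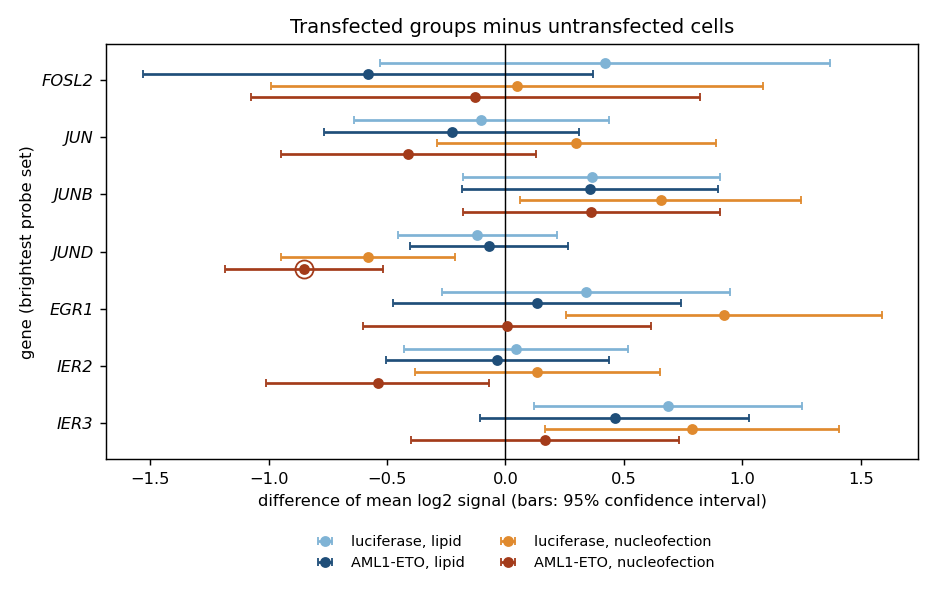
Difference of mean log2 signal between each of the 4 siRNA groups and untransfected cells for the 7 tested genes, with 95% confidence intervals from limma and a ring around called differences. The ring marks JUND with AML1-ETO siRNA by nucleofection, at -0.85.

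Across the 14 arrays, JUN and IER2 had the most similar pattern among the 7 genes, with a Pearson r of 0.68. JUN and EGR1 correlated at 0.544, JUND and IER2 at 0.526, and JUNB and JUND at -0.336, the lowest value. The arrays share groups and scaling, so these values only describe them. Over all tested genes, the patterns most like that of JUN were those of CCT3, a chaperonin subunit (r = 0.914), FKBP4, a co-chaperone of steroid receptors (0.906), and ZDHHC6 (0.90). For EGR1 they were those of SCRIB, a polarity scaffold (0.877), RIMS2 (0.843) and the laminin chain gene LAMC1 (0.839). These patterns are those of the brightest probe sets. They followed the further tested probe sets of JUN (r = -0.0748) and EGR1 (r = 0.0992) poorly.

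The wider pathway was counted in 5 gene lists. These were chosen with earlier results of these data known, so their shares of calls cannot be read against those of all genes. Of 17 further AP-1 and related bZIP genes, 14 were on the array and 9 were tested. None of the 9 was called for the knockdown as the mean of both methods, by lipid or by nucleofection. Of all genes, 1.66%, 0.125% and 2.62% were called there, and the median of the 9 was -0.12 for the mean. BATF, which pairs with Jun proteins, fell with luciferase nucleofection against untransfected cells, from a geometric mean signal of 82.1 to 28.3 (difference -1.54, limma adjusted p = 0.0155). BATF3, its close relative, rose from the floor to 82.3, a difference of at least 2.04 (adjusted p = 0.0313). Of all genes, 5.14% were called in this comparison, and 0 when only the arrays of the groups compared were fitted. The group with AML1-ETO siRNA by nucleofection read 61.2 for BATF and 28.1 for BATF3, and the group without siRNA 73.4 and 37.9. Of 7 further EGR, IER and NAB genes, 6 were on the array and 5 were tested, with 0 called for the knockdown. IER5 was lower with lipid than with nucleofection by 0.59 (adjusted p = 0.0138), where 25.6% of all genes were called. It was the 1 call of this list in any comparison and is named after its values were seen.

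Of 31 upstream kinases and ternary complex factors, which carry the signal from KIT and RAS to serum response factor, 24 were on the array and 20 were tested. None was called for the knockdown, and as the mean of both methods the median was -0.09 and 1.66% of all genes were called. ARAF and MRTFA were higher with lipid than with nucleofection by 0.38 and 0.43, where 22.0% of all genes were called in this direction. They were the 2 members called in any comparison and are named for that after their values were seen. Of 54 further immediate early genes, 49 were on the array and 33 were tested, and as the mean of both methods 4 rose and 2 fell with AML1-ETO siRNA, where 1.66% of all genes were called, with a median of -0.07, the same as over all genes. The limma adjusted p of these 6 was 0.00265 to 0.0315. Because the list was chosen with earlier results known, these calls say nothing about immediate early genes as a class. ID2, an inhibitor of bHLH factors, rose by 0.96, and ZFP36L2, an mRNA decay factor, by 0.78. BHLHE40, a bHLH repressor, rose by 0.75. By nucleofection ID2, ZFP36L2 and BHLHE40 rose by 1.30, 1.20 and 1.08 and were called. By lipid they differed by 0.61, 0.36 and 0.43 and were not called (limma adjusted p = 0.901, 0.971 and 0.999). CXCL8, a neutrophil chemokine, fell by 1.31, with a geometric mean signal of 794 in luciferase and 159 in AML1-ETO siRNA arrays by nucleofection, whereas the difference by lipid was -0.30 (adjusted p = 0.999). Between methods, 8 of the 33 were higher with lipid, as were 22.0% of all genes, and none was lower. With AML1-ETO nucleofection against untransfected cells 4 of the 33 rose and 4 fell, and 8.15% of all genes were called. NFIL3, a bZIP repressor, rose with luciferase nucleofection against untransfected cells by 0.91 (adjusted p = 0.0184), where 5.14% of all genes were called. It rose by 0.76 with AML1-ETO siRNA by nucleofection too (limma adjusted p = 0.0205). By lipid NFIL3 differed by 0.53 with luciferase and 0.73 with AML1-ETO siRNA, without a call. When only the arrays of the groups compared were fitted, luciferase nucleofection had 0 calls.

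Of 24 AP-1 target genes, 23 were on the array and 13 were tested, and for the knockdown 1 rose as the mean of both methods and none fell, against the same 1.66% of all genes. S100A8, a myeloid calcium-binding protein, rose by 1.56 (limma, adjusted p = 0.000504). Its geometric mean signal went from 24.4 to 80.7 by lipid and from 21.8 to 57.3 by nucleofection. The median of the list was -0.01. TIMP1, a metalloproteinase inhibitor, fell with luciferase nucleofection against untransfected cells from 342 to 139 (difference -1.30, adjusted p = 0.00453). Of all genes, 5.14% were called in that comparison, and 0 when only the arrays of the groups compared were fitted. TIMP1 read 137 on the array nucleofected without siRNA and 231 with AML1-ETO siRNA by nucleofection. The log2 GAPDH ratio was 0.03 and 0.25 on the luciferase nucleofection arrays and -0.21 and -0.19 in untransfected cells. The log2 actin ratio overlapped, at 0.38 to 0.84 and 0.50 to 0.66. The part of RNA integrity in these calls was not tested.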

How the data were processed

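The authors deposited a linear MAS5 signal intensity for every probe set of each of 14 arrays, per the submitters' processing notes. The MAS5 version was not given in the sources used here. Scaling used a factor of 0.488 to 1.561 for each array, per the labels, and left a mean of 138.5 on all of them, which hides any shift common to most genes. Of the probe sets, 19065 carried 1 gene symbol in the platform annotation, 1043 several and 2107 none, and 68 were controls. Updating by gene identifier changed 0 symbols. Probe sets with _s_at or _x_at in their name may also bind related transcripts.

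Signals were floored at 20 and log2 was taken. The brightest probe set by mean represented each gene, and the upper 60% of genes were tested with lmFit and eBayes of limma 3.58.1 in R 4.3.3. The model had 6 group means over all 14 arrays, with 8 residual and 4.65 prior degrees of freedom. A second fit took all probe sets. Genes were called below a Benjamini-Hochberg adjusted p of 0.05. The steps were tested on simulated data. Figures were drawn with matplotlib 3.10.9 (Python 3.11.15, numpy 2.4.6, pandas 2.3.3). The number of arrays limits the precision.

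By rule, the text names the 10 genes with all their probe sets, RUNX1T1, up to 4 genes per list called for the knockdown and up to 4 called for luciferase siRNA against untransfected cells by smallest p, and the 3 genes most correlated with JUN and with EGR1. FOS, for which the same was planned, did not pass the filter. The members and lists were chosen with earlier results of these data known. Alternatives changed the scaling, floor, filter, features, variance model, covariates, arrays and controls.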

Additional observations from a re-analysis of the deposited data

Results flagged for a closer look

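The array nucleofected without siRNA was part of no limma comparison between groups, and 3 probe sets gave it a signal above all 7 control arrays, which were the untransfected and luciferase arrays. JUNB read 117.56 there, against 57.2 to 116.51 on the controls. FOSL2 218880_at read 36.66, against 25.3 to 35.0. JUN 201465_s_at read 21.34, against 4.83 to 8.90, and was above the floor on this array only. In the other direction, JUND 203752_s_at read 652.31, IER2 538.2 and FOSL2 218881_s_at 11.51 there. These lay below all 7 control arrays, whose lowest signals were 686.33, 577.0 and 28.1. JUN 201466_s_at and FOSL2 205409_at, under the floor there, also lay below all controls. How many of all probe sets lay above or below the controls on this array was not counted. A single array has no replicate, and these differences were not tested. Groups here hold at most 3 arrays, so no search for arrays that stand apart within a group was made, and no gene of the 7 differed between methods in the effect of the knockdown at an adjusted p below 0.05.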

How the results depend on the processing

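The 63 differences of the 7 genes were recomputed under 26 settings, 14 of which left out 1 array. Of 1555 values, 1471 kept their direction and side of the threshold, 9 became called, 3 lost a call and 72 uncalled values changed sign or lay at 0, while no called value changed sign. The JUND difference between lipid and nucleofection was called under all 25 settings in which it was computed, at 0.38 to 0.69. The number of the 7 genes called for luciferase nucleofection against untransfected cells went from 0 to 1, which was JUND, with arrays centred on their medians, a floor of 64, log2 of signal plus 16, no filter, the upper 40% of genes, or trend and robust variance. It ranged from 0 to 1 when single arrays were left out, with 1 without AML1-ETO nucleofection replicate 2 (adjusted p = 0.0485). For the knockdown by nucleofection it went from 0 to 1 with trend and robust variance, where IER2 was called (adjusted p = 0.0407). For lipid against nucleofection it went from 1 to 2 with the log2 scale factor as a covariate, where IER3 at 0.50 (adjusted p = 0.0475) joined JUND. For AML1-ETO nucleofection against untransfected cells it went from 1 to 0 when only the arrays of these groups were fitted, and ranged from 0 to 1 with single arrays left out, at 0 without untransfected replicate 1 or 3. The cause was not tested.

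The replicate numbers did not pair the arrays: over 22 pairs of arrays with 1 number, the correlation of deviations from group means was -0.287 to 0.0529, with 0 pairs above 0.1. With a replicate block the number of the 7 genes called was unchanged in all 9 comparisons, and JUND was called for lipid against nucleofection at 0.62 (adjusted p = 0.00566) and for AML1-ETO nucleofection against untransfected cells at -0.87 (adjusted p = 0.0227). Over all genes, calls moved from 119 to 73 for the mean knockdown, from 188 to 108 for nucleofection, from 369 to 133 for luciferase nucleofection and from 585 to 312 for AML1-ETO nucleofection against untransfected cells.

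The counts over all genes depended on other settings too. Quantile normalization gave 185 for the mean knockdown, 373 for nucleofection, 1132 in place of 1841 for lipid against nucleofection and 348 for AML1-ETO nucleofection against untransfected cells. The share of calls that were higher then went from 85.7% to 55.9% for lipid against nucleofection, from 21.2% to 50.6% for AML1-ETO nucleofection, from 24.1% to 36.0% for luciferase nucleofection and from 68.9% to 80.5% for the mean knockdown. Centring on medians gave 893 calls and 6.7% higher for luciferase nucleofection, 87.0% for the mean knockdown and 86.4% in place of 62.2% for nucleofection. The scale factor covariate gave 544, 202 and 100 calls for lipid against nucleofection, AML1-ETO nucleofection and luciferase nucleofection. Fitting only the groups compared gave 23 for the knockdown by nucleofection, 0 for luciferase nucleofection and 187 for AML1-ETO nucleofection. Adding untransfected and no-siRNA arrays to the controls gave 35 for the mean knockdown, no filter gave 295 for nucleofection, and trend and robust variance gave 563 for luciferase nucleofection. Leaving out 1 array gave 59 to 119 for the mean knockdown and 52 to 239 for nucleofection, both lowest without luciferase nucleofection replicate 1. It gave 56 to 432 for luciferase and 102 to 728 for AML1-ETO nucleofection against untransfected cells, both lowest without untransfected replicate 1. It gave 1171 to 1841 for lipid against nucleofection. Comparisons with under 10 calls moved between 0 and 48.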

Other observations

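The dim FOSL2 probe set 205409_at entered no comparison because it was below the floor on 11 arrays. The 3 arrays above the floor were all nucleofected with siRNA, at 26.9 on luciferase replicate 2 and at 21.5 and 45.3 on AML1-ETO siRNA replicates 1 and 3. The array nucleofected without siRNA read 2.24, and the arrays without nucleofection read at most 12.5. The brightest FOSL2 probe set did not show this order, and the difference was not tested.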
